A study of Fundulus heteroclitus with 5 samples.

Results

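The dim end of a cDNA microarray of the teleost fish Fundulus heteroclitus was described through the 92 of its 384 features that gave less fluorescence than any feature used for measurement. A deposited table of normalized values lists 212 features, the authors' selection, and leaves 172 unlisted. Each feature was averaged over 40 values (5 arrays, 2 dyes and 4 spots), and an unlisted feature was counted as dim where this mean lay below 814.6 (scanner units), the lowest mean of a listed feature. The other 80 unlisted features lay above it. The dim features were thus chosen by the fluorescence on these 5 arrays, so their low level is a description and carries no test. Cy5 made up 78.7% of their summed fluorescence, and the 50× array 33.4% (71.7% in the listed features), so these values weighed most in the choice.

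Total RNA came from the hearts of fish kept in the laboratory for several months, and was amplified with T7 RNA polymerase, labeled with Cy3 or Cy5 through amino allyl UTP and hybridized at 0.1×, 1×, 5×, 10× and 50× of the usual concentration. There was 1 array per concentration, and both dyes were taken from the sample titles and column names to have been at the same nominal concentration on 1 array. The methods describe a loop design for all experiments, in which the dyes of a sample go on different arrays, so each comparison of the dyes below rests on this reading. The dye series ran from 1.2 to 700 pmol, with 18% less Cy5 than Cy3. All groups share the tissue and the labeling, no group had a replicate array, and the SDs given with values are over spots of the same array, which is technical error only.

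On a spotted cDNA array, labeled RNA binds to DNA of its own sequence, and each spot also reads light that does not come from that binding, such as the glow of the slide, unbound dye and RNA held without a sequence match. Negative controls, here cDNA of a ctenophore (a comb jelly), measure this unspecific light, and a gene is read only where it stands above them. The working heart relies on oxidative metabolism, so transcripts of the citrate cycle and of oxidative phosphorylation are plentiful there. In RNA from whole tissue, a transcript that few cells carry and a transcript that all cells carry at a low level cannot be told apart.

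What the 92 dim features encode was not analysed here, because the files pair no feature number with a gene name or sequence, and for the same reason the cardiac origin was not checked against marker genes. The array was printed with 329 metabolic cDNAs and 55 control genes. If all 212 listed features are metabolic genes, the 172 unlisted features are 117 metabolic cDNAs and the 55 controls. At least 37 of the 92 dim features are then metabolic cDNAs, even if every control were among the dim ones.

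The limit did not fall in a gap. The mean over 40 values ran from 554.2 in feature 383, the dimmest, to 814.575 in feature 364, the brightest of the dim features, against 814.625 in the listed feature that set the limit. The next dim features below were at 814.55 and 813.2, and the nearest unlisted features above were at 820.6 and 821.4. Within 5% of the limit lay 20 dim features below it, and 17 unlisted and 7 listed features above it. The median of the dim features was 685.4, against 1018 for the other unlisted features and 1838 for the listed ones. None of the 368 spots of the dim features reached the ceiling of the scanner or carried the mark that the table sets beside 33 spots.

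The fluorescence of the dim features in Cy3 was low and similar on the lower arrays and highest at 50×. Their median was 128 at 0.1×, with single features from 104 to 189.5. It was 119.9 at 1×, from 98.5 to 547. At 5× it was 141, from 96.8 to 381, and at 10× it was 209, from 128 to 447. At 50× the median was 786, from 346 to 1648. The SD of these medians over the 4 sets of spots was 2.47, 3.92, 4.89, 8.87 and 79.2 in the order of concentration. The medians of the first 3 arrays thus lay close together, and that at 50× lay far above all others. Between 0.1× and 5×, a 50-fold change in RNA, the ratio of a feature's 2 values had a median of 1.07, and 55 of the 92 were higher at 5×. This was not particular to the dim features. In the 212 listed features the same ratio had a median of 0.955, and 94 were higher at 5×.

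In Cy5 the dim features did not follow the concentration. Their median was 1138 at 0.1×, with single features from 906 to 1712, and 1063 at 1×, from 907 to 1390. At 5× it was 1259, from 1088 to 1646. At 10× it was 474, from 366 to 748, the lowest of the 5 arrays, and at 50× it was 1456, from 559 to 2350. The ranges at 5× and 10× did not overlap, and all 92 dim features were lower at 10× than at 5×. The drop was not particular to them, as 0 of the 212 listed features were higher at 10× than at 5×. Over the 500-fold change in RNA from 0.1× to 50×, the ratio of a feature's 2 values had a median of 1.16, and 75 of the 92 features were higher at 50×. In the listed features this ratio had a median of 5.01, and all 212 were higher at 50×.

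**Figure D1:**
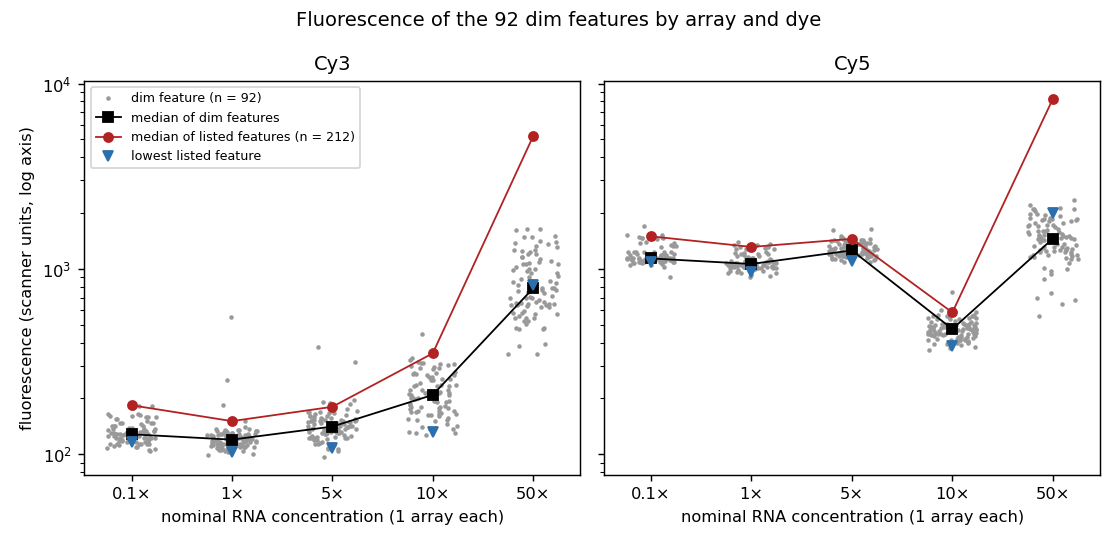
Fluorescence (log axis, scanner units) of each of the 92 dim features on the 5 arrays, in Cy3 and Cy5, with the median of the dim features (squares), the median of the 212 listed features (circles) and the lowest listed feature (triangles). The medians of the dim and the listed features lie nearer each other from 0.1× to 10× than at 50×. At 50× the listed features read 5197 in Cy3 and 8258 in Cy5 against 786 and 1456 in the dim features.

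On all 5 arrays a slope fit called no feature, dim or listed, in either dye, so it could not tell whether the dim features changed with concentration. A slope was fitted to each feature, as the change in log2 fluorescence per doubling of the RNA. Its median among the dim features was 0.26 in Cy3 (0.08 to 0.34) and -0.02 in Cy5 (-0.12 to 0.06). Over all 384 features the medians were 0.35 and 0.07. The slope was above 0 in all 92 dim features in Cy3 and in 27 in Cy5. Cy3 was higher at 50× than at 0.1× in all 92 dim features, with a median ratio of 5.82. It was so in all 212 listed features as well, with a median ratio of 25. Limma called 0 of the 92 dim features in each dye (adjusted p below 0.05 over 384 features, 5 arrays), and 0 at an unadjusted p below 0.05. Over all features 0% were called in each dye, although 120 features had an unadjusted p below 0.05 in Cy3 and 0 in Cy5. Without the 0.1× array, 9 of the 92 were called in Cy3, among 233 of 384. The rule weighs the 50× array and so favours low slopes, and all features share the same 5 arrays. Feature 280 had the highest Cy3 slope of the dim features, 0.34 ± 0.22 (SE), and feature 239 the lowest, 0.08 ± 0.22. The SE was the same in all 92 dim features because limma pooled the variance over the 384 features, so it is not a feature's own error.

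Step by step, the dim features moved in the same direction as the listed features on these arrays, with a smaller difference at the last step. From 0.1× to 1×, Cy3 was higher in 28 of 92 dim features, with a median ratio of 0.929 (36 of 212 and 0.827 in the listed features). From 1× to 5× it was higher in 78, with a ratio of 1.19 (148 and 1.14). From 5× to 10× it was higher in 91, with a ratio of 1.45 (210 and 1.97). From 10× to 50× it was higher in 91, with a ratio of 3.54, against all 212 and 11.2 in the listed features. In Cy5 the same 4 ratios were 0.930, 1.16, 0.373 and 3.01 in the dim features and 0.874, 1.098, 0.399 and 13.5 in the listed ones. At the last step, a 5-fold change in RNA, the ratio was above 5 in 25 dim features in Cy3 and in 2 in Cy5. Cy3 was higher at all 4 steps in 20 of the 92 features and Cy5 in 0. The listed features were counted only step by step, and 0 of them were higher in Cy5 from 5× to 10×.

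Read against the features that were used for measurement, the dim features had a lower median on every array, and lay farthest below at the highest concentration. No background was subtracted, so any light common to all spots raises the percentages given here. In Cy3 the median of the dim features was 69.7% ± 4.2 (SD over 4 spot sets) of the listed median at 0.1×, 79.5% ± 4.8 at 1×, 78.2% ± 2.8 at 5× and 59.6% ± 2.6 at 10×. It was 15.1% ± 1.7 at 50×. In Cy5 it was 76.0% ± 7.4, 80.9% ± 2.7, 86.7% ± 2.1 and 81.4% ± 3.5 at 0.1× to 10×, and 17.6% ± 2.2 at 50×. The 4 lower arrays lay within 59.6% to 86.7%. With 1 array per concentration, and with the 50× values used in the choice of the dim features, the difference from the 50× array was not tested. The listed median exceeded the dim median by 55.6 units at 0.1×, 31.0 at 1×, 39.2 at 5×, 141 at 10× and 4410.5 at 50× in Cy3. In Cy5 the excess fell from each array to the next between 0.1× and 10×, at 359.9, 251, 194 and 108 units, and it was 6802 at 50×.

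**Figure D2:**
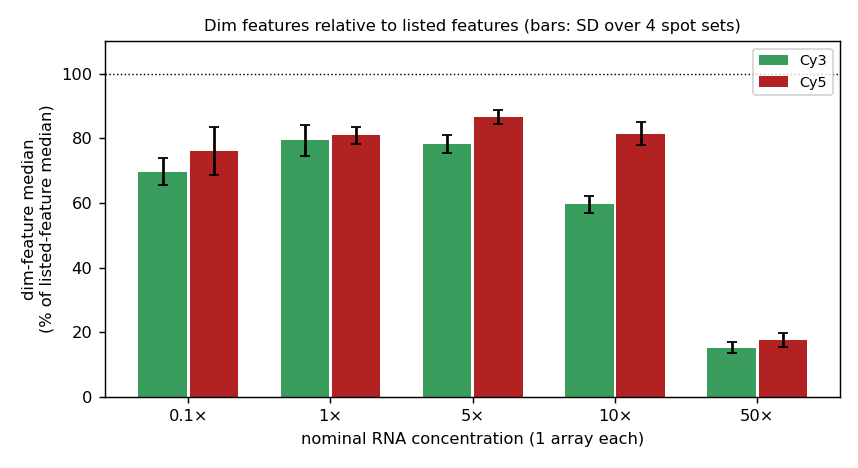
Median fluorescence of the 92 dim features as a percentage of the median of the 212 listed features of the same array and dye (error bars, SD over 4 spot sets). The share lies between 59.6% and 86.7% from 0.1× to 10× and at 15.1% and 17.6% at 50×.

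The dim and the listed features overlapped on every array. Below the lowest listed feature of the same array and dye lay 85 of the 92 dim features in Cy5 at 50× and 50 in Cy3 at 50×, but 2 to 16 in each of the other 8 array and dye combinations. No dim feature was below the lowest listed feature in all 10 combinations. The most was 7, and in 5 dim features it was 0. Below the listed median, by contrast, lay 73 of the 92 dim features in all 10 combinations. Of the 92 lowest of all 384 features, 81 were dim features in Cy5 at 50× and 45 to 68 elsewhere. The choice of the group rested on the 50× array more than on the others: without it 29 features fell below the limit, 27 of them among the 92, and with 1 of the other arrays left out 85 to 99 did.

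The study kept genes by their average over arrays and dyes, with a lower margin of 2 SD above the negative controls. The negative controls are not marked in the table. A margin of 2 SD was therefore set above the mean of the dim features, with the SD across these features, and unlike in the study it was applied to each array and dye separately. In Cy3 the margin was passed by 128 of the 212 listed features at 0.1×, 48 at 1×, 56 at 5×, 116 at 10× and 186 at 50×. In Cy5 it was passed by 115, 104, 77, 88 and 208 in the same order. Passing was not particular to the listed features. Of the 80 other unlisted features, 34, 25, 28, 32 and 53 passed in Cy3 and 31, 32, 27, 24 and 60 in Cy5. The counts of 48 and 56 rest on features 239 and 332, and without this pair they were 117 and 99. With the array in question left out of the means and the limit, 163 listed features passed at 50× in Cy3 and 190 in Cy5. On the other arrays 41 to 130 did. The authors' list was kept, and it rests on the average over all arrays, so the array still had a part in the choice.

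The dim features were unevenly spread over the print area. The rule did not use the print position itself, but the fluorescence that it used differed between print columns in the listed features as well. The layout is therefore not independent of the choice. Each set of spots occupies 8 rows and 48 columns, and a feature has the same column in all 4 sets. Of the 92 dim features, 73 were printed in columns 25 to 48 and 19 in columns 1 to 24, with 192 features in each range. The listed features went the other way, with 86 and 126, and the other unlisted features numbered 33 and 47. Between neighbouring groups of 8 columns the change was abrupt, from 4 dim features in columns 17 to 24 to 26 in columns 25 to 32. All 10 print columns with no dim feature lay in columns 1 to 24. The listed feature that set the limit was itself printed in columns 25 to 48. A limit set separately in each range was therefore unchanged there, and so were the 73 features. In columns 1 to 24 a separate limit gave 21 features. By print row the numbers ran from 6 to 17 of 48 features. These counts describe the layout of 1 print design and were not tested.

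**Figure D3:**
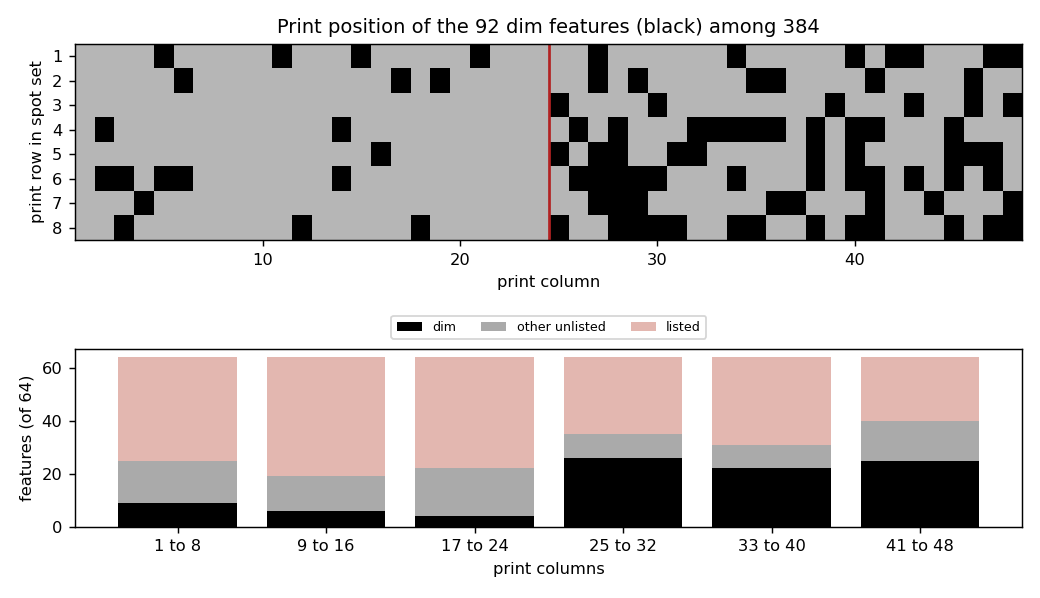
Print position of the 92 dim features (black) in the 8 rows and 48 columns of a spot set, with a line between columns 24 and 25, and the number of dim, other unlisted and listed features in each group of 8 columns. Columns 25 to 48 hold 73 of the 92 dim features.

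The level of the dim features also differed across the print columns. On the 10× array their median in Cy3 was 298 in columns 1 to 8, 264 in columns 17 to 24 and 158 in columns 41 to 48, and in Cy5 it was 555, 547 and 414. All 5 steps between neighbouring groups of columns went down on that array in both dyes, and in Cy5 on the 1× and 5× arrays as well. In Cy5 the median in columns 25 to 48 over that in columns 1 to 24 was 0.807 ± 0.047 (SD over 4 spot sets) at 0.1×, 0.858 ± 0.024 at 1×, 0.891 ± 0.042 at 5× and 0.827 ± 0.022 at 10×. It was below 1 in 4 of 4 spot sets on each of these arrays. At 50× it was 0.829 ± 0.205, below 1 in 3 of 4 spot sets.

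In the listed features the ratio of columns 25 to 48 over columns 1 to 24 in Cy5 was 0.828, 0.838, 0.877 and 0.794 at 0.1× to 10×, near that of the dim features. In Cy3 it was 0.976, 1.04, 0.869 and 0.703, against 0.846, 0.916, 0.873 and 0.664 in the dim features. At 50× it was 1.44 ± 0.32 in Cy3 in the listed features, against 0.936 ± 0.076 in the dim ones. In Cy5 at 50× it was 1.11 ± 0.93, below 1 in 2 of 4 spot sets, a spread that covers the 0.829 of the dim features. The dim median as a percentage of the listed median therefore differed when taken within a range of columns. In Cy5 it was 86.1%, 90.9%, 93.6% and 92.5% at 0.1× to 10× in columns 25 to 48, and 88.4%, 88.7%, 92.1% and 88.8% in columns 1 to 24, all above the values over the whole array. In Cy3 it was 69.3% to 84.2% in columns 25 to 48 and 75.02% to 86.4% in columns 1 to 24 on these 4 arrays. At 50× it was 12.7% in Cy3 and 15.4% in Cy5 in columns 25 to 48, and 19.6% and 20.6% in columns 1 to 24. The part of the print position in the differences between dim and listed features was not tested.

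**Figure D4:**
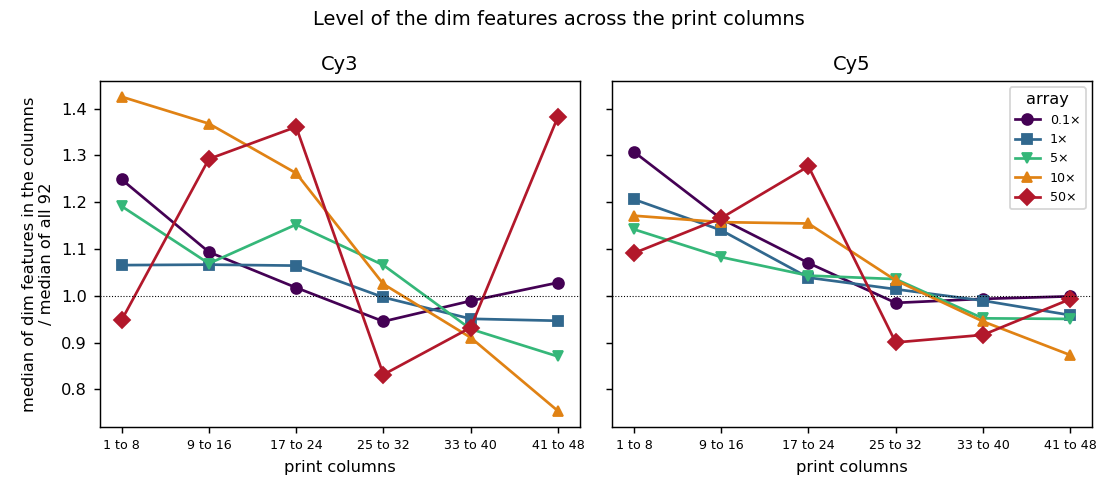
Median fluorescence of the dim features in each group of 8 print columns, divided by the median of all 92, for the 5 arrays in Cy3 and Cy5. On the 10× array the 6 groups run down from left to right in both dyes, whereas the 50× array has its lowest value in columns 25 to 32.

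Along the other direction of the slide, the 50× array differed between spot sets in Cy3. The median of the dim features was 858 in rows 1 to 8, 799.5 in rows 9 to 16, 735.5 in rows 17 to 24 and 675 in rows 25 to 32. The listed features had 6085, 5329.5, 4553 and 3741.5 in the same rows. In Cy5 at 50× the dim features had 1481, 1457, 1291 and 1328.5 in these rows, and the listed features 7230, 6774, 6974.5 and 8004.5. The first and last medians thus differed in the same direction in both kinds of feature in Cy3, and in opposite directions in Cy5. These medians take all columns together, and single dim features went both ways. In Cy5 at 50×, feature 384 in column 48 read 3908, 1855, 1439 and 1613, and feature 208 in column 16 read 1406, 1300, 2890 and 2787.

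The spread among the dim features differed between arrays and dyes. The upper quartile was 1.11 to 1.17 times the lower in Cy5 at 0.1× to 10× and 1.15 to 1.499 times in Cy3, against 1.39 times in Cy5 and 1.69 times in Cy3 at 50×. In the listed features at 50× it was 3.55 times in Cy5 and 3.999 times in Cy3. Within a dim feature, the CV of its 4 spots had a median of 7.01% to 8.87% in Cy5 at 0.1× to 10× and 12.8% to 19.3% in Cy3, and of 18.5% in Cy5 and 18.7% in Cy3 at 50×. These are CVs of single spots, and the error of a mean of 4 spots is smaller, so they cannot be set directly against a CV between features. Between the means of the 92 features the CV was 8.83% to 12.8% in Cy5 on the lower arrays. In Cy3 it was 13.9%, 37.9%, 25.4%, 27.2% and 37.6% at 0.1× to 50×, and that at 1× includes feature 239.

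Part of the order among the dim features repeated between spots. Spearman's rho between the first and last pair of spot sets, across 92 features, was 0.75 in Cy5 and 0.69 in Cy3 at 10×, and 0.24 in Cy3 at 1×, the lowest. It was lower than in the 212 listed features on all 10 array and dye combinations. Within columns 25 to 48 (73 features) it was 0.64 and 0.53 at 10×, and -0.04 in Cy5 at 0.1×, where it had been 0.32 over all columns. Between dyes of 1 array rho was 0.39 at 0.1×, 0.28 at 1×, 0.52 at 5×, 0.85 at 10× and 0.86 at 50×. Between the 10× and 50× arrays it was -0.16 in Cy3 and 0.14 in Cy5, against 0.48 in both dyes in the listed features. A limit on the mean over all arrays by itself draws such values down, and features share the array, the column and the spots, so these coefficients are descriptions.

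The 2 dyes differed in scale, and few dim features were called for a dye difference beyond it. The raw ratio of Cy5 to Cy3 in the dim features had a median of 9.05 at 0.1×, 9.19 at 1×, 9.19 at 5×, 2.31 at 10× and 1.82 at 50×, and in the listed features 7.99, 8.35, 8.01, 1.64 and 1.81. After loess within each array, limma called the log2 ratio different from 0 in 2 of the 92 dim features, or 1 in each direction (adjusted p below 0.05 over 384 features, 5 arrays). Of all 384 features 13.5% were called, 4.69% with the higher Cy5 and 8.85% with the lower. An unadjusted limma p below 0.05 occurred in 14 of the 92 dim features and in 149 of all 384. Both calls sit close to the threshold, and neither was made when the 0.1×, 1×, 5× or 10× array was left out or when the spots at the ceiling were. The loess curve was fitted to all spots, those of the dim features included, so it can take up a dye difference that they share. The median log2 ratio of the dim features was -0.02 after loess and 0.14 with median centring in its place.

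Feature 242 was the dim feature with the largest excess of Cy5 among those with 1 sign on all 5 arrays. Its Cy5 fluorescence was 1712 at 0.1×, 1301 at 1×, 1438 at 5×, 598 at 10× and 1589 at 50×, and its Cy3 fluorescence 145, 128, 155, 308 and 713. The value of 1712 leans on 1 spot at 2361 beside 1507, 1493 and 1487. With the median of the 4 spots, 0 dim features were called for a dye difference. The normalized log2 ratio was 0.26 ± 0.07 (SE; limma adjusted p = 0.0488, 5 arrays). It was printed in column 2, and the dim features of columns 1 to 8 had a Cy5 median of 1489 at 0.1×, above the 1138 of the whole group. The normalized log2 ratio was above 0 in all 9 dim features of columns 1 to 8, from 0.07 in feature 54 to 0.26 in feature 242. It was above 0 in 42 of all 92. Feature 332, named because it is the other call, had a log2 ratio of -0.26 ± 0.07 (limma adjusted p = 0.0488). Its Cy3 fluorescence was 116 at 0.1×, 250 at 1×, 381 at 5×, 447 at 10× and 348 at 50×, the highest of the dim features at 5× and 10×, and its Cy5 fluorescence at 50×, 559, was the lowest. At 5× its spots read 763, 298, 307 and 155 in Cy3, so the mean of 381 leans on 1 spot.

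Feature 239 had the largest ratio in favour of Cy3, -0.67 ± 0.22 on the log2 scale, and missed the threshold (limma adjusted p = 0.0668). On the 1× array its 4 spots read 736, 506, 539 and 407 in Cy3, where the median of the dim features was 119.9, and 987, 780, 986 and 1066 in Cy5, where the median was 1063. On the 5× array 2 of its spots read 540 and 514 in Cy3 and the other two 100 and 110. At 50× it read 392 ± 80.2 (SD, n = 4 spots), below the median of 786. Over all 40 values it had a mean of 584, near the low end of the group, although it was number 33 of 384 in Cy3 on the 1× array.

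The dimmest feature, 383, read 114, 108, 107, 129.5 and 346 in Cy3 at 0.1× to 50×. In Cy5 it read 1353, 907, 1088, 389.8 and 1000.2, and the first of these rests on 1 spot at 2253 beside 901, 1194 and 1065. Feature 364, the brightest of the dim features, read 131, 123, 150, 268 and 1100 in Cy3 and 1086.5, 1149.5, 1301, 487 and 2350 in Cy5, the last being the highest Cy5 value of the group. Feature 280, with the highest Cy3 slope, read 113, 112, 129.5, 221 and 1246 in Cy3 and 1149, 1093.5, 1199, 466 and 1830 in Cy5. The 3 features thus lay between 107 and 150 in Cy3 at 0.1× to 5×, and between 346 and 1246 at 50×.

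**Figure D5:**
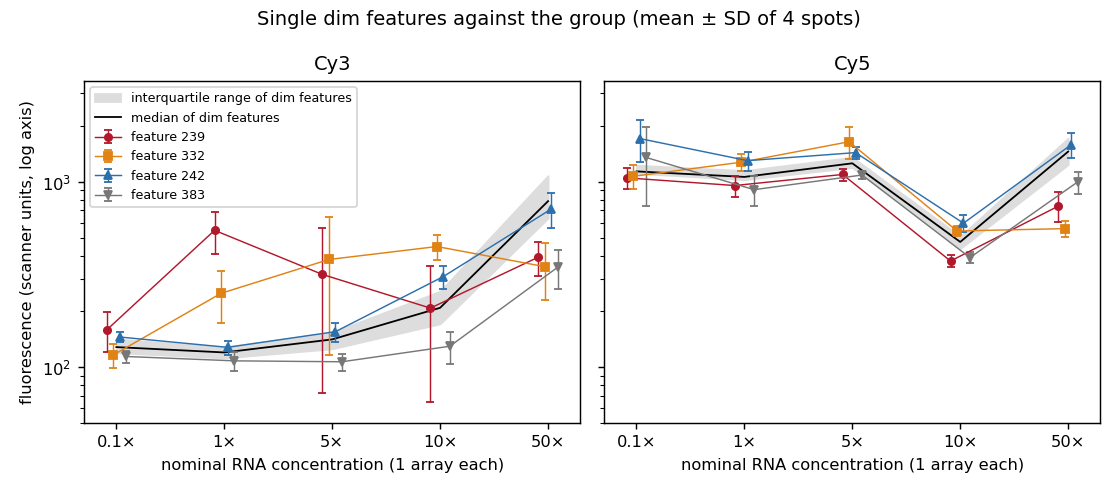
Fluorescence (log axis, mean ± SD of 4 spots) of features 239, 332, 242 and 383 on the 5 arrays in Cy3 and Cy5, over the median (line) and the interquartile range (band) of the 92 dim features. Features 239 and 332 lie above the band in Cy3 at 1× and 5× and below it at 50×.

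Single bright spots were rare among the dim features. Of 3680 spot values, 3 exceeded 3 times the median of their feature, 2 in Cy3 at 10× and 1 in Cy5 at 50×. They read 423, 662 and 3949, against at most 147, 211 and 1432 in the other 3 spots of the same feature. The last is feature 47, whose spots at 50× fell from the first set to the last in both dyes. They read 3949, 1432, 768 and 749 in Cy5 and 2860, 1565, 510 and 324 in Cy3. Feature 47 was not alone in this, as several other dim features of columns 41 to 48 fell in the same way in both dyes, though not all of them. In the listed features 5 of 848 spots exceeded 3 times the median of their feature in Cy5 at 50× and 0 in the other combinations. Deviations of single spots from their feature's mean (log2 scale, 368 spots) were shared by the dyes with r = 0.77 at 50× and 0.10 at 0.1× in the dim features, and with 0.46 and 0.39 in the listed ones.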

How the data were processed

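The authors scanned the slides with ScanArray Express, used Imagene for quantification. Each deposited value is a raw spot intensity, and the table used holds neither background values nor any scaling between arrays. The 5 per-array records hold 1 and the same table, which was read once, with columns matched to arrays by their headers. The deposited table of 212 features, scaled by the authors to equal intensity totals, was used only for its list of features.

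Spot values were averaged per feature without background subtraction. Percentages, steps and print positions were computed with Python 3.11.15, numpy 2.4.6 and pandas 2.3.3. Limma 3.58.1 in R 4.3.3 (lmFit, eBayes, two-sided, Benjamini-Hochberg at 0.05) was fitted to all 384 features for the slopes and for the log2 ratio of Cy5 to Cy3 after loess within each array (span 0.3, 4 iterations). The fits were tested on simulated data in which each feature had independent noise, with no error shared by an array and no floor. That does not show how they behave on these arrays. An array holds technical spots only, so their number limits the precision.

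The dim features and the tests were chosen with earlier results of these data known. Features named by rule are the dimmest and brightest, the largest dye difference in each direction with 1 sign on 5 arrays, and the highest and lowest Cy3 slope. Feature 332 was added after its values were seen, and so were features 47, 54, 208 and 384, which serve as examples or as the end of a range.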

Additional observations from a re-analysis of the deposited data

How the results depend on the processing

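No paired analysis was possible because each concentration has 1 array, so concentrations cannot be paired, and the dye ratio is already taken within each array. The number of dim features was 92, against 53 from Cy3 values alone and 29 to 99 with 1 array left out (29 without the 50× array). Their median at 50× was 1087 in Cy3 and 20.9% of the listed median where that array was left out of the limit. The authors' list, which rests on all arrays, was kept there. With the choice from Cy3 alone the median at 50× was 649.5 in Cy3 and 1268.5 in Cy5, or 12.5% and 15.4%. That choice gave 146.8 and 81.4% in Cy3 at 5×, and the choice from Cy5 alone 200 in Cy3 at 10×. Spot medians gave 124.8, 134.5 and 199.8 in Cy3 at 0.1×, 5× and 10×. The mean over the dim features was 132, 126 and 866 in Cy3 at 0.1×, 1× and 50×, and 1189.8 and 1095 in Cy5 at 0.1× and 1×.

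Columns 25 to 48 alone, chosen after the data were examined, gave 125 and 193 in Cy3 at 0.1× and 10×, 1229.8 and 1362.5 in Cy5 at 5× and 50×, and shares of 84.2%, 70.9% and 12.7% in Cy3 at 5×, 10× and 50× and of 86.1%, 90.9%, 93.6%, 92.5% and 15.4% in Cy5.

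Listed features past the margin of 2 SD numbered 107 and 108 in Cy3 at 1× and 5× with the choice from Cy3 alone, and 27, 15, 13 and 58 in Cy3 at 0.1× to 10× from Cy5 alone. With 3 SD they numbered 31 in Cy3 and 47 in Cy5 at 5×. Against the floor of their own column range 101 passed in Cy3 at 1×, and without features 239 and 332 117 and 99 in Cy3 at 1× and 5×, both chosen after the data were examined.

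Dim features with a dye difference numbered 2, among 52 called of all 384. With median centring they numbered 0 (16 at an unadjusted limma p below 0.05), among 39 called. The median of the spots gave 0 (13), among 11, and leaving out ceiling spots gave 0 (14), among 29. With no normalization, which tests the difference in scale between the dyes, there were 92, among 373. With 1 array left out there were 0 to 2, among 9 to 36. With ratios centred on each group of 8 print columns, chosen after the data were examined, there were 2, among 18. Slope calls in Cy3 numbered 0 to 9 with 1 array left out, among 0 to 233 of all 384 features. In Cy5 they numbered 0, among 0 to 14. The causes were not tested. With no replicate arrays, no difference between concentrations has an error of its own, and 4 spots per feature limit what can be told apart near the level of the dim features.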
